A study of Mus musculus with 2 samples.

Results

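The 9 genes described here, of 32285 in the count tables, belong to efferocytosis, the uptake of dying cells by phagocytes, and to the CD47 axis that restrains it. They were taken by symbol and comprise the receptors Mertk, Axl, Stab1, Timd4 and Itgav, the bridging ligands Gas6 and Mfge8, and the pair Sirpa and Cd47. Their UMIs (unique molecular identifiers, 1 per captured RNA molecule) were summed over the cells of each marker-gated cell class. No member served as a gate marker. A dying cell shows phosphatidylserine on its surface, and a phagocyte binds it either directly, through TIM-4 (the product of Timd4) or stabilin-1 (Stab1), or over a bridge. GAS6 bridges to the receptor tyrosine kinases MERTK and AXL, and MFG-E8 (Mfge8) bridges to integrins that contain the alpha-v chain (Itgav). CD47 on a healthy cell engages SIRP-alpha (Sirpa) on the phagocyte and lowers uptake, and tissue macrophages are the best known carriers of this machinery.

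Both groups were tumours grown under the skin from B16-F10, a melanoma line of the mouse, and taken 14 days after injection. One carried the label FDPS-knockout (KO) and the other the label WT. FDPS, farnesyl diphosphate synthase, is an enzyme of the mevalonate pathway, and the engineered loss lies in the injected tumour cells, so the host leukocytes of both groups carried no such edit. Viable CD45+ cells were sorted from digested tumours, 3 tumours per group, and each group gave 1 library with no map from cells to tumours. Each comparison is therefore of 1 library with 1 library, no test was possible, and the intervals (exact Poisson for levels, Clopper-Pearson for shares and ratios, all at 95%) cover counting error only. After filters, 8062 KO and 8595 WT cells remained. Fdps stood at 89.3 CPM (UMIs scaled to a total of 1e6 per class) in 17 gated melanoma cells of the KO library and at 400.1 CPM in 390 of the WT library. It was also lower in host classes, with 14.9 CPM in KO and 36.4 CPM in WT macrophages. Melanoma cells passed the CD45 sort, although a CD45+ gate should hold none, and the markers Pmel, Mlana, Tyrp1, Dct and Tyr together made 32.4 CPM in KO and 161.9 CPM in WT macrophages. The libraries shared 30 cell barcodes, 14 of them among kept cells.

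The gate took 603 KO and 3049 WT cells as macrophages by C1qa, C1qb, C1qc, Ms4a7, Apoe and C3ar1, which was 7.48% of KO and 35.5% of WT cells. Each of these 6 markers was detected in both libraries, and Ptprc, which encodes CD45, stood at 1165 CPM in KO and 563.8 CPM in WT macrophages. Monocytes were 178 KO and 651 WT cells, and cDC1 (type 1 conventional dendritic cells) 173 KO and 114 WT cells. There were 331 KO and 104 WT cDC2 and 105 KO and 145 WT mature dendritic cells (DCs), and 1871 KO and 1534 WT cells stayed ungated. In all, 10 classes held at least 100 cells in both libraries, the other 5 being CD8 T, regulatory T, other T, NK and B cells. A log2 ratio here is that of CPM plus 5, KO over WT, and "higher" or "lower" means past 1.5-fold on that scale. Genes whose 2 libraries averaged under 10 CPM in a class were not called.

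The start-site windows of the 5 members whose levels differed most in macrophages or cDC1 are shown because some were higher and others lower in the KO library. Each runs from 250 bases before to 50 bases after the start site, read 5′ to 3′ on the gene's own strand, from RefSeq on GRCm38.p6. Windows were searched on both strands for AGGAAGT (PU.1 and other ETS factors), TGANTCA (AP-1), AGGTCA (a nuclear receptor half-site), the response element of the IRF family and CACGTG (MiT-TFE factors), which do not overlap each other here, and capitals mark a match. Mertk lies at chr2:128698665-128698964 on the plus strand, Gas6 at chr8:13494486-13494785 on the minus strand, and Stab1 at chr14:31168592-31168891 on the minus strand. Itgav lies at chr2:83724147-83724446 and Timd4 at chr11:46810549-46810848, both on the plus strand.
Mertk: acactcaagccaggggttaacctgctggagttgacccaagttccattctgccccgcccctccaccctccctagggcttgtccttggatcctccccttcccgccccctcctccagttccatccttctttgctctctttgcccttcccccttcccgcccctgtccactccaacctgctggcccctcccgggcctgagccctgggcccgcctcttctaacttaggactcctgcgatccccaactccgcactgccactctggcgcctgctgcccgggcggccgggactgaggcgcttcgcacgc
Gas6: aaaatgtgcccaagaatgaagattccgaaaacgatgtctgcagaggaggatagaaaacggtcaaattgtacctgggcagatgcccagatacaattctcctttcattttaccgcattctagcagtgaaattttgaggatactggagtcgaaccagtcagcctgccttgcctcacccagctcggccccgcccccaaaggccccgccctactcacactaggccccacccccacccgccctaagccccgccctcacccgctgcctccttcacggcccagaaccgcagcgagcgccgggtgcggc
Stab1: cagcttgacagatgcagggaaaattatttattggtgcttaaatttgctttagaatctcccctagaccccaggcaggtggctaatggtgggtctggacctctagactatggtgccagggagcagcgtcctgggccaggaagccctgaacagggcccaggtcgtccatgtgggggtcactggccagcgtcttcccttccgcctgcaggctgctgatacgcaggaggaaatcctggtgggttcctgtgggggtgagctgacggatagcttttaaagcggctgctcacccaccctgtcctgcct
Itgav: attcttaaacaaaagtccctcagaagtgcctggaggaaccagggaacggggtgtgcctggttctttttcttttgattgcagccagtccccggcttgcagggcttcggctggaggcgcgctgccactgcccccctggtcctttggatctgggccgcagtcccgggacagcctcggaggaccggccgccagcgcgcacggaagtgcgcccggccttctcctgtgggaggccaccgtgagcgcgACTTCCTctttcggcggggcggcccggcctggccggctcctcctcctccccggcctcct
Timd4: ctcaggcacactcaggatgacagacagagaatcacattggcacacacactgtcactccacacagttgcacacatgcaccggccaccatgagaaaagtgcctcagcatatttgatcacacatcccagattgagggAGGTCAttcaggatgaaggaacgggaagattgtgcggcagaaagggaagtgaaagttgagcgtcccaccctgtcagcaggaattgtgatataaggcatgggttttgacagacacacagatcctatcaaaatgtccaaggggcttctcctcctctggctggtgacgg
The windows of Mertk, Gas6 and Stab1 held none of the 5 motifs in these letters. Itgav held the ETS motif, in reverse complement, 9 bases before the start site, and Timd4 held AGGTCA 116 bases before it. Among 32851 mouse windows of the same length, 9.35% held AGGAAGT, 7.81% TGANTCA, 16.3% AGGTCA, 3.44% the IRF element and 7.15% CACGTG. A match is a run of letters and not a site.

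Across all macrophages of the gate, the phosphatidylserine-sensing genes did not share a direction. Mertk and its ligand Gas6 were higher in KO macrophages, Stab1 and Itgav were lower, and Axl, Sirpa and Cd47 stayed within 1.5-fold. Timd4 and Mfge8 were under the level filter. Of all 8376 genes measured in macrophages, 15.7% were higher and 16.1% lower in the KO library, and the median log2 ratio was 0.00, against -0.03 over the 7 members measured. The counts of 2 higher and 2 lower among 7 are thus above these shares, but with so few genes they are a description.

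**Figure D1:**
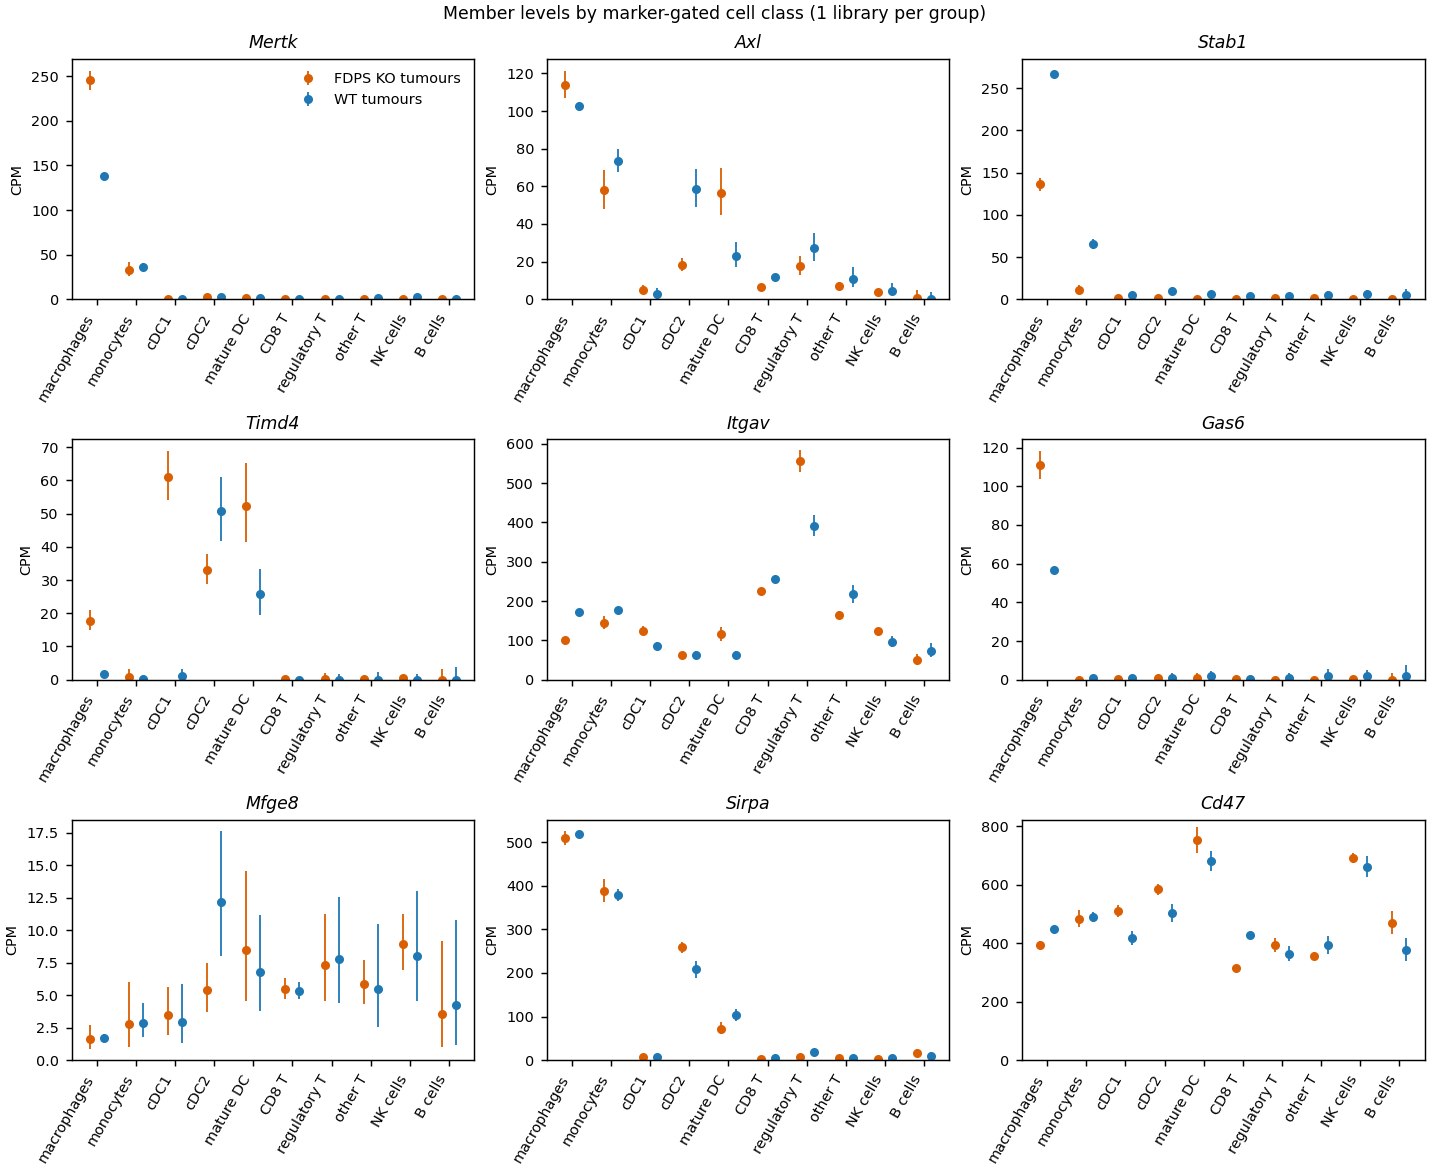
Level of each member (vertical axis, CPM, linear from 0) in the 10 cell classes with at least 100 cells per library; points are the summed UMIs of 1 library per group and bars are exact Poisson 95% intervals. In macrophages Mertk stood at 245.3 CPM in KO and 138.4 CPM in WT, Stab1 at 135.9 CPM in KO and 266.7 CPM in WT, and Timd4 in cDC1 at 61.1 CPM in KO and 1.11 CPM in WT.

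Mertk, the receptor kinase most tied to corpse uptake by macrophages, had 245.3 CPM in KO macrophages (234.7 to 256.2) and 138.4 CPM in WT macrophages (135.5 to 141.2). This was a 1.77-fold ratio (1.69 to 1.86) and a log2 ratio of 0.80. The 2 intervals did not overlap. At 2000 UMIs per cell, 33.0% of 573 KO and 21.0% of 2891 WT macrophages held a Mertk UMI, with 30 KO and 158 WT cells too shallow for this thinning. Without thinning the shares were 63.4% in KO and 62.5% in WT, at median depths of 10694 UMIs in KO and 18772 in WT macrophages. In CD8 T cells, which should lack Mertk, thinned shares were 0.0485% in KO and 0.168% in WT cells, at median depths of 12913 UMIs in KO and 21479 in WT. Thus the macrophage share was far above the level that free RNA gave elsewhere in the same libraries.

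The Mertk ratio was not uniform over the gate. KO macrophages lay mainly in clusters led by Retnla, Lyz1 and Ear2 (168 cells), by Negr1, Ccl8 and C1qa (142), by Cd163, Cd209f and Lyve1 (141) and by Hp, Chil3 and Vcan (124). WT macrophages lay mainly in the Ccl8 C1qa cluster (1056), a cluster led by Arg1 and Spp1 (978) and one led by Ifnb1 and Gdf15 (535). Within the Ccl8 C1qa cluster Mertk had 416.0 CPM in KO and 137.2 CPM in WT macrophages, a 3.03-fold ratio (2.80 to 3.28). In the Cd163-led cluster it had 323.3 CPM in 141 KO and 282.3 CPM in 77 WT macrophages, 1.15-fold (1.01 to 1.30). In the Chil3 Hp cluster it had 185.7 CPM in KO and 125.4 CPM in WT macrophages, 1.48-fold (1.28 to 1.71). Of the Retnla-led cluster, which was 681 KO and 16 WT cells, only the 168 KO and 6 WT cells with enough C1q-set markers entered the gate, and 483 KO cells there stayed ungated. Over all its cells Mertk was at 51.6 CPM in KO and 18.4 CPM (5 UMIs) in WT. When every cell took the majority gate of its cluster, so that this cluster entered whole among other changes, the macrophage log2 ratio was -0.047. With the median of genes of like span subtracted the log2 ratio was 0.44, which is under 1.5-fold, and the Mertk gene spans 104 kb. Mertk was therefore past 1.5-fold higher in the KO marker gate as a whole and in its Ccl8 C1qa cluster. It was also past it in the macrophages positive for neither Cd163 nor Spp1, at the thresholds given below. These had 234.8 CPM in KO and 136.1 CPM in WT (1.73-fold, 1.64 to 1.82). The Retnla-led cluster, on 5 WT UMIs, and the Spp1 range, on 26 KO UMIs, were past it too. Mertk was within 1.5-fold in the Cd163-led, Chil3 Hp and Arg1 Spp1 clusters and in the Cd163 range. It was also within it with the span median subtracted and by cluster majority.

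Axl, the other GAS6 receptor measured, had 113.9 CPM in KO (106.7 to 121.5) and 102.5 CPM in WT macrophages, a log2 ratio of 0.15 that became -0.75 with cells classed by the majority gate of their cluster. Inside the Ccl8 C1qa cluster it had 258.2 CPM in KO and 120.7 CPM in WT macrophages, 2.14-fold (1.94 to 2.36), and inside the Chil3 Hp cluster 161.5 CPM in KO and 102.6 CPM in WT, 1.57-fold (1.35 to 1.84). In the Retnla-led cluster it had only 23.1 CPM in 681 KO cells, against 62.6 CPM in 16 WT cells. The even Axl level of the whole gate thus joined clusters with high and low levels in the KO library.

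Stab1, the scavenger receptor stabilin-1, had 135.9 CPM in KO macrophages (128.0 to 144.1) and 266.7 CPM in WT macrophages (262.7 to 270.7). The WT level was 1.96 times the KO level (1.85 to 2.09), a log2 ratio of -0.95, or -1.74 with cells classed by the majority gate of their cluster. Stab1 was also lower in KO within some subsets of the gate, though not in all. It had 426.3 CPM in 90 KO and 1018 CPM in 35 WT macrophages with at least 1 Cd163 UMI per 10000. In the Ccl8 C1qa cluster it had 145.8 CPM in KO and 325.5 CPM in WT macrophages, and in the Chil3 Hp cluster 44.4 CPM in KO and 117.6 CPM in WT. It was within 1.5-fold in the Arg1 Spp1 cluster, at 197.3 CPM in 14 KO and 264.9 CPM in 978 WT macrophages. The same held for the Spp1 range given below, at 207.4 CPM in 6 KO and 248.2 CPM in 604 WT macrophages. In the Retnla-led cluster the 6 gated WT macrophages held 1 Stab1 UMI, and over all cells of that cluster Stab1 had 4.82 CPM in 681 KO cells (54 UMIs) and 18.4 CPM in 16 WT cells (5 UMIs). Nt5dc2, which overlaps Stab1 on the opposite strand, stood at 7.55 CPM in KO and 27.6 CPM in WT macrophages. The sources used here do not say whether counting used strand, so reads of the overlap cannot be assigned with certainty.

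Itgav, the alpha-v integrin chain, had 101.0 CPM in KO macrophages (94.3 to 108.1) and 170.9 CPM in WT macrophages (167.7 to 174.1), a log2 ratio of -0.73, or -1.10 with the median of genes of like span subtracted. Inside the Ccl8 C1qa cluster the order was the other way, with 188.0 CPM in KO and 159.7 CPM in WT macrophages (1.18-fold, 1.05 to 1.31). In the Chil3 Hp cluster it was 124.6 CPM in KO and 124.1 CPM in WT. Low KO levels were seen in the Cd163-led cluster, at 32.0 CPM in KO and 120.7 CPM in WT, and in the 168 gated KO cells of the Retnla-led cluster, at 66.8 CPM. In the Arg1 Spp1 cluster Itgav had 79.8 CPM in 14 KO and 161.1 CPM in 978 WT macrophages. In macrophages positive for neither Cd163 nor Spp1, at the thresholds given below, it had 109.9 CPM in KO and 172.0 CPM in WT. The part of each subset in the whole-gate ratio was not tested.

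Gas6, which bridges phosphatidylserine to MERTK and AXL, had 110.9 CPM in KO macrophages (103.8 to 118.3) and 56.6 CPM in WT macrophages (54.8 to 58.5), a 1.96-fold ratio (1.82 to 2.11) and a log2 ratio of 0.91. After thinning 15.4% of KO and 6.57% of WT macrophages held a Gas6 UMI, against 0% of 2063 KO and 0.112% of 1785 WT CD8 T cells. Cd163-positive cells were 14.9% of KO and 1.15% of WT macrophages, and within them Gas6 had 546.1 CPM in KO and 555.7 CPM in WT cells. In the macrophages positive for neither Cd163 nor Spp1, 507 KO and 2410 WT cells, it had 55.7 CPM in KO and 49.5 CPM in WT, a log2 ratio of 0.16. In the Ccl8 C1qa cluster it had 23.6 CPM in KO and 63.6 CPM in WT macrophages, a log2 ratio of -1.26, and with the 3 ranges weighted equally the log2 ratio was -0.017. Classing cells by the majority gate of their cluster gave 0.18. Gas6 was higher in the KO macrophages as a whole and not past 1.5-fold higher within any of these subsets. In the 168 gated KO cells of the Retnla-led cluster it had 12.85 CPM (36 UMIs), with 0 UMIs in the 6 gated WT cells. The part of the subset mix in the Gas6 ratio was not tested. The Cd163 range is a span of a score and not a cell type, since 9 of 90 KO and 5 of 35 WT cells in it held a single Cd163 UMI, and 28 KO and 104 WT macrophages held a Cd163 UMI below the threshold. The Spp1 range, from 3 Spp1 UMIs per 10000, held 6 KO and 604 WT macrophages, and 28 KO and 701 WT macrophages had fewer Spp1 UMIs than that. In it Gas6 had 39.5 CPM in KO (4 UMIs) and 44.2 CPM in WT, and Mertk 256.8 CPM in KO (26 UMIs) and 140.9 CPM in WT. Tmem255b, on the opposite strand from Gas6, had no UMI in macrophages of either library.

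**Figure D2:**
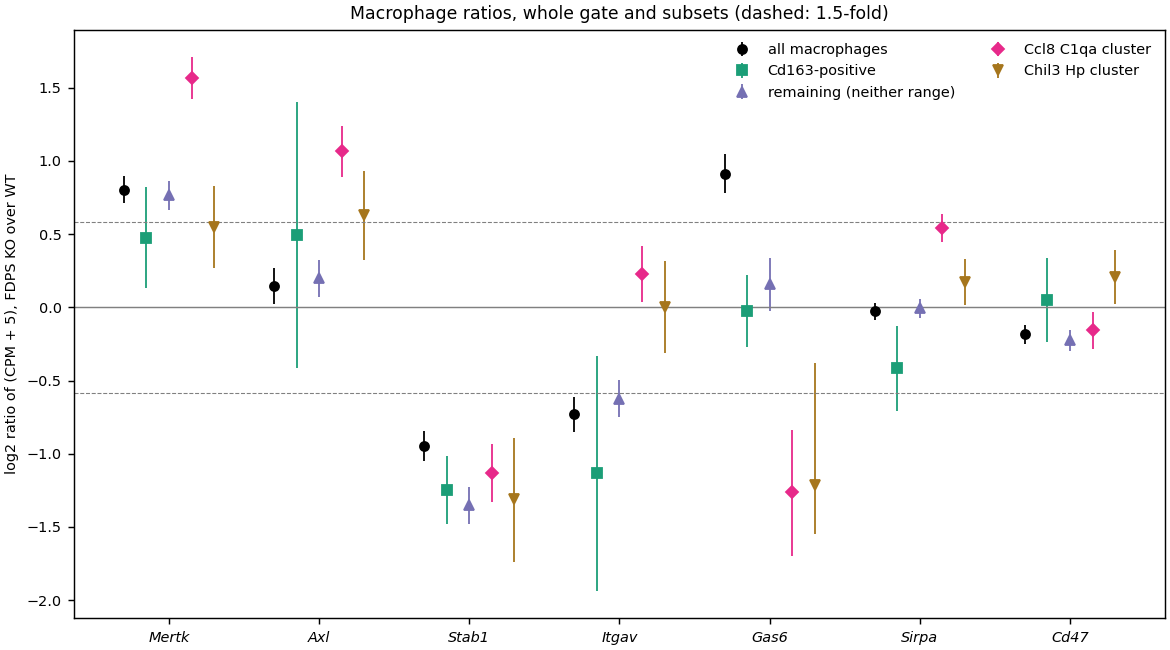
Log2 ratio of CPM plus 5, KO over WT (vertical axis), of the 7 members measured in macrophages, for the whole gate and for subsets of it; bars combine the ends of the exact Poisson 95% intervals, 1 library per group, and dashed lines mark 1.5-fold. Stab1 lies below the lower dashed line in all 5 sets, while Gas6 is 0.91 in the whole gate and -1.26 in the Ccl8 C1qa cluster.

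Sirpa, the CD47 receptor on phagocytes, had 509.5 CPM in KO macrophages (494.2 to 525.2) and 519.7 CPM in WT macrophages, a log2 ratio of -0.03. Cd47 had 392.6 CPM in KO macrophages (379.1 to 406.4) and 447.0 CPM in WT macrophages, a log2 ratio of -0.19. At 2000 UMIs per cell, Sirpa was detected in 58.1% of KO and 61.5% of WT macrophages, and Cd47 in 53.2% of KO and 54.3% of WT macrophages. Intervals of these shares overlapped between the libraries for both genes. The CPM intervals of Cd47 did not overlap, with 441.9 to 452.2 in WT macrophages and a ratio of 0.88 (0.85 to 0.91). The macrophage side of the CD47 axis was thus close to even in the whole gate, although Sirpa inside the Ccl8 C1qa cluster had 849.1 CPM in KO and 581.2 CPM in WT macrophages (1.46-fold, 1.39 to 1.54). Sirpa has close relatives among the Sirpb genes, and how reads were split between them is not stated, so its level is uncertain to that extent. Mfge8 was scarce in macrophages, with 1.58 CPM in KO (13 UMIs) and 1.69 CPM in WT (111 UMIs).

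Markers of other classes also differed in the macrophage gate. The T cell set summed to 52.2 CPM in KO and 21.1 CPM in WT macrophages, the cDC2 set to 209.4 CPM in KO and 43.1 CPM in WT, and the fibroblast set to 21.2 CPM in KO and 3.20 CPM in WT, with no marker of these sets at 0. The set of neutrophils had Retnlg at 0 in KO macrophages, at 89.7 CPM in KO and 71.1 CPM in WT for the whole set. Their part in the member ratios was not tested. Fibroblasts, which a CD45+ sort should remove, are a known source of Gas6 and Axl, and the 3 KO and 15 WT cells of the fibroblast gate had 209.1 CPM in KO and 92.0 CPM in WT of Gas6. Free RNA was estimated at 4.33% of UMIs in KO and 4.87% in WT macrophages, and subtracting it left the direction and the call of all 4 members past 1.5-fold as they were.

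In monocytes, the blood-derived precursors of many tumour macrophages, only Stab1 passed 1.5-fold. It had 11.1 CPM in KO monocytes (24 UMIs in 178 cells) and 64.9 CPM in WT monocytes (495 UMIs in 651 cells), the WT level being 5.85 times the KO level (3.88 to 9.21) and the log2 ratio -2.12. After thinning, 1.69% of KO and 9.69% of WT monocytes held a Stab1 UMI. The mix of the monocyte gate also differed between the libraries. In the Chil3 Hp cluster lay 169 KO and 472 WT monocytes, and in the Arg1 Spp1 cluster 6 KO and 175 WT. The part of this mix in the Stab1 ratio was not tested. In monocytes 9.69% of 7749 genes were lower and 18.5% higher in KO, and 1 of the 6 members measured was lower and 0 higher. Mertk stood at 32.8 CPM in KO (25.7 to 41.4) and 36.1 CPM in WT monocytes, Axl at 57.8 CPM in KO and 73.3 CPM in WT, and Itgav at 143.9 CPM in KO and 176.0 CPM in WT. Sirpa was at 389.0 CPM in KO and 379.5 CPM in WT, and Cd47 at 483.4 CPM in KO and 489.2 CPM in WT. The Mertk log2 ratio was thus -0.12 in gated monocytes and 0.80 in gated macrophages, whereas classing cells by the majority gate of their cluster gave 0.57 in monocytes and -0.047 in macrophages. The difference between the classes was not tested, and its direction depends on how they are drawn. With the median of genes of like span subtracted, Itgav in monocytes had a log2 ratio of -0.72, past 1.5-fold, in place of -0.28. Gas6 had 0 UMIs in KO monocytes, which allows up to 1.39 CPM by the limit of 3 counts, and 0.787 CPM in WT monocytes. Mertk was lower in monocytes than in macrophages in both libraries.

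The largest ratio of any member in the 10 classes was that of Timd4 in cDC1, the dendritic cells specialised in presenting antigen from dead cells to CD8 T cells. TIM-4 is best known from resident macrophages of mouse tissues. In cDC1, Timd4 had 61.1 CPM in the KO library (54.0 to 68.9), with 267 UMIs in 46 of 173 cells. The WT library had 1.11 CPM, with 3 UMIs in 2 of 114 cells. The ratio was 55.1-fold with a counting interval of 18.7 to 268.8, and the log2 ratio with 5 CPM added was 3.44. Of the 46 positive KO cells 18 had at least 5 UMIs and held 217 of the 267, and the highest single cell had 42. Thinned to 2000 UMIs, 10.5% of KO cDC1 (18 of 172) and 0% of 111 WT cDC1 held a Timd4 UMI, and 0% of CD8 T cells in either library. Median depth was 22432 UMIs in KO and 21854 in WT cDC1. The estimated free RNA level of Timd4 in cDC1 was 0.196 CPM in KO and 0.108 CPM in WT. The signal was thus carried by a minority of the KO cells (26.6%), some at high counts per cell, and was low in WT cells. In cDC1 11.4% of 8164 genes were higher and 5.16% lower in KO, and Timd4 was the 1 higher member of 3 measured. The cDC1 marker set summed to 1447 CPM in KO and 1558 CPM in WT cDC1, and the macrophage set to 19.5 CPM in KO and 122.7 CPM in WT. The melanoma set stood at 9.15 CPM in KO and 82.4 CPM in WT cDC1. The part of these transcripts in the Timd4 ratio was not tested.

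The same direction did not hold for all dendritic cells. In cDC2 Timd4 had 33.0 CPM in KO (43 of 331 cells) and 50.8 CPM in WT (14 of 104 cells), a log2 ratio of -0.55 that became 0.85 when the gate margin was raised to 0.25 and -0.76 with cells classed by the majority gate of their cluster. In mature DCs it had 52.3 CPM in KO (14 of 105 cells) and 25.7 CPM in WT (21 of 145 cells), a log2 ratio of 0.90, with 22 of the 80 KO UMIs in 1 cell, and 0.34 with cells classed by the majority gate of their cluster. The shares of positive cells were similar between libraries in both classes, 13.0% in KO and 13.5% in WT cDC2 and 13.3% in KO and 14.5% in WT mature DCs. cDC1 thus stood alone among the 3 DC classes in holding Timd4 in many KO cells and almost no WT cells, which was seen and not tested. Among the macrophage ranges the Timd4 level was highest in the Cd163 range, at 127.3 CPM in KO and 37.8 CPM in WT cells (3.37-fold, 2.33 to 4.98). That range held 118 of the 146 KO but 39 of the 103 WT macrophage UMIs, and 65 WT UMIs lay in the Ccl8 C1qa cluster. In the Cd163-led cluster Timd4 had 77.3 CPM in KO (116 UMIs) and 6.10 CPM in WT (10 UMIs). In the remaining macrophages it was at 3.90 CPM in KO and 1.13 CPM in WT. Over the whole macrophage gate it had 17.8 CPM in KO and 1.57 CPM in WT, and the mean of both libraries lay just under the 10 CPM filter.

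**Figure D3:**
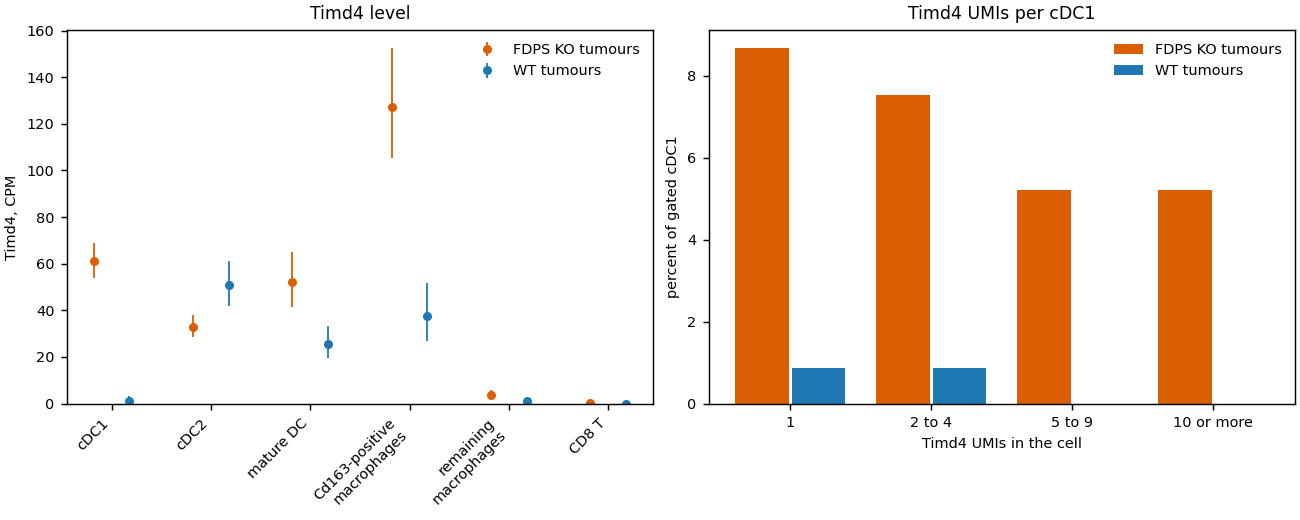
Left, Timd4 level (vertical axis, CPM from 0) in DC classes, macrophage ranges and CD8 T cells, with exact Poisson 95% intervals, 1 library per group. Right, percent of gated cDC1 (vertical axis) by Timd4 UMIs per cell (horizontal axis), cells with none left out; 9 of 173 KO cDC1 held 10 or more and no WT cDC1 held 5 or more.

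Axl and Itgav took different directions in different DC classes. Axl in cDC2 had 18.3 CPM in KO (116 UMIs) and 58.4 CPM in WT (130 UMIs), a log2 ratio of -1.44. In mature DCs it had 56.3 CPM in KO and 23.0 CPM in WT, a log2 ratio of 1.13, but 25 of the 86 KO UMIs came from 1 of 17 positive cells, and 16.2% of KO and 17.2% of WT cells were positive. Itgav in mature DCs had 115.8 CPM in KO and 62.3 CPM in WT, a log2 ratio of 0.84, with 32 of 177 KO UMIs in 1 cell. It was 0.57 as the mean of each cell's CPM and 0.36 with the median of genes of like span subtracted, both within 1.5-fold. In cDC1 Itgav had 124.9 CPM in KO and 85.0 CPM in WT (1.47-fold, 1.26 to 1.72). In KO mature DCs 3 of 5 members measured were higher (Axl, Itgav and Timd4), where 23.0% of 7476 genes were higher and 14.3% lower. In cDC2 1 member of 5 was lower, where 8.66% of 8299 genes were lower and 16% higher. Sirpa, which sets cDC2 apart from cDC1, had 258.9 CPM in KO and 208.1 CPM in WT cDC2, 7.55 CPM in KO and 7.02 CPM in WT cDC1, and 72.0 CPM in KO and 102.9 CPM in WT mature DCs. Plasmacytoid DCs had 214.2 CPM of Sirpa in KO (155 cells) and 236.1 CPM in WT (31 cells).

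In CD8 T cells Mertk, Stab1, Timd4 and Sirpa reached no more than 2.56 CPM in KO and 5.63 CPM in WT, whereas Itgav and Cd47 were well detected in the lymphocyte classes. Of the 10 classes Itgav was highest in regulatory T cells, at 555.4 CPM in KO (528.5 to 583.4) and 391.1 CPM in WT, 1.42-fold (1.30 to 1.55) and a log2 ratio of 0.50 that became -0.021 with the median of genes of like span subtracted. CD8 T cells followed with 225.5 CPM in KO and 255.9 CPM in WT, and the intervals of regulatory and CD8 T cells did not overlap in either library. Gm13684, which overlaps Itgav on the opposite strand, had 55.9 CPM in KO and 42.6 CPM in WT regulatory T cells. Sirpa in regulatory T cells was the 1 lower member there, at 8.03 CPM in KO (23 UMIs) and 19.4 CPM in WT (40 UMIs, 16 of them in 1 cell), where 13.2% of 8440 genes were lower and 20.1% higher. The free RNA level of Sirpa was 5.01 CPM in KO and 7.19 CPM in WT regulatory T cells, and with doublets kept the log2 ratio was 0.081 in place of -0.90. Axl was at 17.5 CPM in KO and 27.1 CPM in WT regulatory T cells, against free RNA levels of 1.04 CPM in KO and 1.59 CPM in WT. In the reported setting no member passed 1.5-fold in CD8 T, NK, B or other T cells, where 18.3%, 8.17%, 16.1% and 17.1% of genes were higher in KO and 7.66%, 5.02%, 8.51% and 11.1% lower. With the median of genes of like span subtracted Itgav did, at -0.73 in CD8 T, -0.87 in B and -0.86 in other T cells, and so did Cd47 in other T cells, at -0.62. Sirpa in B cells had a log2 ratio of 0.54 that became 1.87 with free RNA subtracted and -0.45 at a gate margin of 0.25.

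Cd47 was detected in every class with at least 100 cells, as a signal that most cells carry. Its level in plasmacytoid DCs, which were too few in WT to be among the 10 classes, was 1066 CPM in KO (155 cells) and 1254 CPM in WT (31 cells). Mature DCs led the 10 classes with 752.9 CPM in KO and 681.6 CPM in WT, and NK cells followed with 691.7 CPM in KO and 661.2 CPM in WT; the intervals of these 2 classes overlapped in both libraries. CD8 T cells had 315.2 CPM in KO (309.5 to 321.1) and 429.6 CPM in WT, a log2 ratio of -0.44, which is within 1.5-fold. It was past it, at -0.61 with scaling by the median ratio of genes and at -0.99 with the median of genes of like span subtracted. cDC1 had 509.3 CPM in KO and 416.5 CPM in WT. The 17 KO and 390 WT cells of the melanoma gate had 68.1 CPM in KO and 111.4 CPM in WT, and so the lowest Cd47 level of the gates named here. Mfge8 stayed between 1.58 CPM and a highest level of 12.1 CPM in the 10 classes. The few cells of non-leukocyte gates had 48.3 CPM in 3 KO and 135.0 CPM in 15 WT fibroblast-gated cells and 10.6 CPM in KO and 17.9 CPM in WT melanoma-gated cells.

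The level of a member over a whole library takes in both the mix of classes and the level within each class, which were not separated here. Macrophages supplied 77.4% of the Mertk UMIs of KO cells and 89.5% of those of WT cells, 91.1% of Gas6 in KO and 95.9% in WT, and 82.5% of Stab1 in KO and 91.5% in WT. They supplied 36.7% of Axl in KO and 69.2% in WT, 34.2% of Sirpa in KO and 77.8% in WT, and 6.64% of Cd47 in KO and 42.3% in WT, while holding 7.25% of all KO and 38.2% of all WT UMIs. For Timd4 the ungated cells were the largest source, with 31.8% of its UMIs in KO and 53.2% in WT, and cDC1 supplied 25.4% in KO and 0.505% in WT. Over all cells outside the melanoma gate, Mertk was at 23.1 CPM in KO and 66.6 CPM in WT, the opposite order to that within macrophages. Stab1 was at 12.1 CPM in KO and 127.4 CPM in WT, Axl at 22.4 CPM in KO and 61.8 CPM in WT, and Sirpa at 108.7 CPM in KO and 284.9 CPM in WT. Cd47 was nearly even, at 434.9 CPM in KO and 447.5 CPM in WT. Timd4 was higher in KO, at 9.43 CPM, than in WT, at 3.97 CPM. At 2000 UMIs per cell, Mertk-positive macrophages made 2.49% of KO and 8.04% of WT cells.

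**Figure D4:**
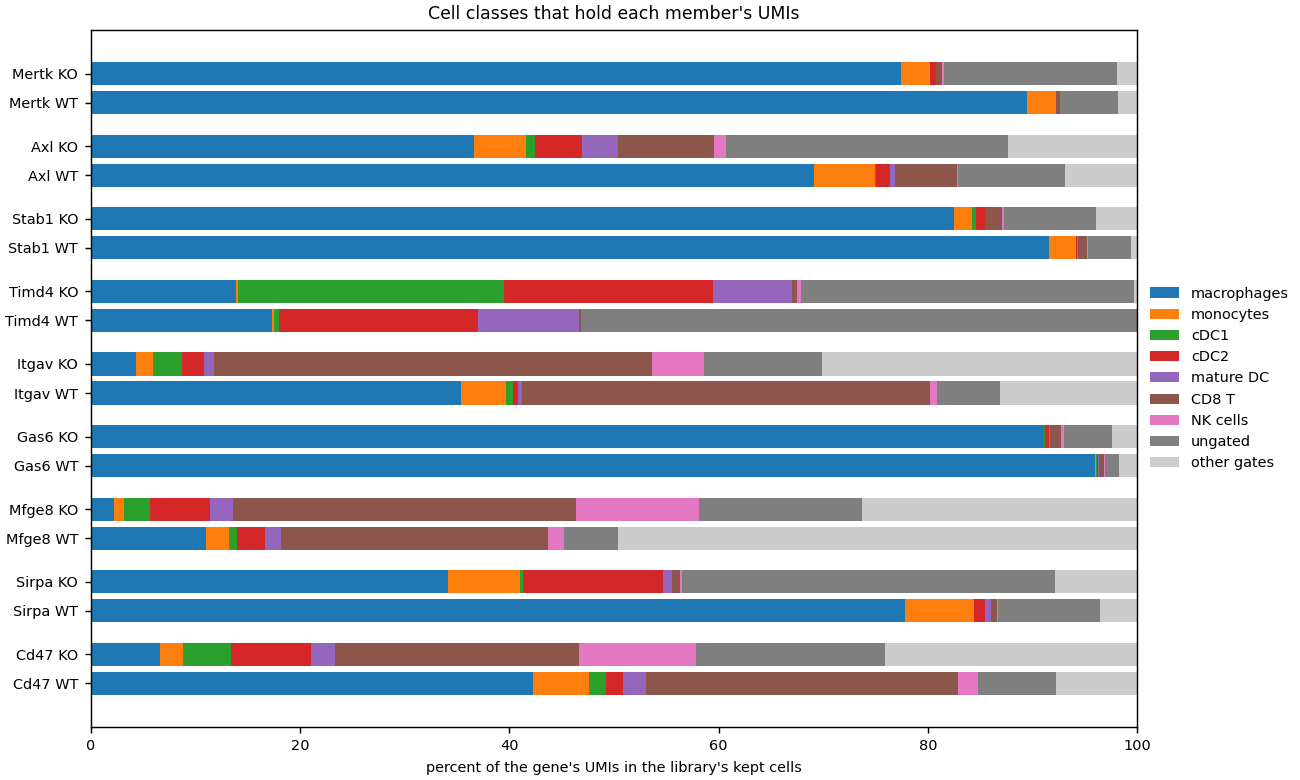
Percent of each member's UMIs (horizontal axis) that came from each cell class, with the KO library above the WT library for each gene; other gates pools the classes not listed. Macrophages hold most Mertk, Stab1 and Gas6 UMIs in both libraries and 34.2% of Sirpa UMIs in KO against 77.8% in WT.

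Other genes of the pathway were read from 8 lists, whose counts in macrophages stand beside 15.7% of all genes higher and 16.1% lower. Among corpse receptors in macrophages, 0 of 9 measured genes were higher and 2 lower in KO, which is near these shares. The lower ones were Msr1, the class A scavenger receptor, at 107.3 CPM in KO and 418.5 CPM in WT, and Cd300lf, a phosphatidylserine receptor, at 93.3 CPM in KO and 200.3 CPM in WT. Of 7 bridging molecules 5 were lower and 1 higher, the median log2 ratio being -0.74, but C1qa, C1qb and C1qc among the lower ones are gate markers. Lgals3, which bridges to MERTK, had 1305 CPM in KO and 4116 CPM in WT, and C1qb 1978 CPM in KO and 3622 CPM in WT. Thbs1, which bridges to CD36 and alpha-v integrin, had 82.5 CPM in KO and 134.2 CPM in WT. Pros1, the other ligand of the MERTK family, had 88.8 CPM in KO and 31.9 CPM in WT, a log2 ratio of 1.35, so that Gas6 and Pros1 were higher and Lgals3 lower in KO macrophages as a whole. Among find-me sensors, Gpr132 had 96.5 CPM in KO and 19.3 CPM in WT and Cx3cr1 89.3 CPM in KO and 47.3 CPM in WT, 2 higher of 3 measured.

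The engulfment list had 3 higher and 1 lower of 9 measured genes in macrophages, beside the same 15.7% and 16.1% of all genes, and with so few genes these counts are a description. List genes were not corrected for gene span, a correction that moved Mertk in macrophages from a log2 ratio of 0.80 to 0.44. Dock1, the exchange factor that activates Rac below the receptors, had 171.7 CPM in KO and 75.3 CPM in WT, and Dock2 1130 CPM in KO and 576.9 CPM in WT. Elmo1, the partner of Dock1, had 640.6 CPM in KO and 377.2 CPM in WT. Rac2 had 161.3 CPM in KO and 310.3 CPM in WT. In the digestion list 2 of 11 were higher, Uvrag with 461.7 CPM in KO and 241.5 CPM in WT and Pik3c3 with 31.1 CPM in KO and 18.3 CPM in WT, and 1 was lower, Cyba with 974.0 CPM in KO and 1564 CPM in WT. Of 8 measured sterol-response genes only Nr1h3, which encodes the oxysterol sensor LXR-alpha, differed, at 46.5 CPM in KO and 77.4 CPM in WT. In the list of the CD47 axis and other do-not-eat-me signals Cd24a had 18.5 CPM in KO and 6.53 CPM in WT, and Qpct 30.6 CPM in KO and 14.4 CPM in WT. Fcer1g, an adaptor gene of that list and not itself a do-not-eat-me signal, had 1369 CPM in KO and 3068 CPM in WT. Both genes of the shedding list, Adam10 and Adam17, whose proteases cut MERTK from the cell surface, stayed within 1.5-fold.

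In monocytes, where 18.5% of all genes were higher and 9.69% lower, 4 of 9 measured corpse receptors were lower and 1 higher, with Msr1 at 175.8 CPM in KO and 516.4 CPM in WT, Cd36 at 34.7 CPM in KO and 85.6 CPM in WT and Cd300lf at 151.7 CPM in KO and 352.5 CPM in WT. The others were Havcr2, at 49.9 CPM in KO and 105.2 CPM in WT, and the higher Cd300a, at 324.2 CPM in KO and 209.8 CPM in WT. Of 7 bridging molecules 4 were lower and 0 higher, with Lgals3 at 1031 CPM in KO and 3275 CPM in WT, Thbs1 at 204.4 CPM in KO and 514.8 CPM in WT and Anxa1 at 103.1 CPM in KO and 174.4 CPM in WT. C1qa was at 31.9 CPM in KO and 53.6 CPM in WT monocytes. Among engulfment genes 3 of 9 were higher, with Dock1 at 208.1 CPM in KO and 51.1 CPM in WT, Elmo1 at 932.0 CPM in KO and 472.5 CPM in WT and Dock2 at 1419 CPM in KO and 796.1 CPM in WT. Cx3cr1 had 139.2 CPM in KO and 74.5 CPM in WT. Of the digestion list Uvrag had 744.7 CPM in KO and 361.8 CPM in WT and Atg7 163.7 CPM in KO and 97.6 CPM in WT. Abca1, the cholesterol exporter, had 19.4 CPM in KO and 39.5 CPM in WT, and Nr1h3 11.1 CPM in KO and 24.0 CPM in WT. Cd24a had 5.09 CPM in KO and 15.9 CPM in WT monocytes, the other order than in macrophages, Qpct had 12.0 CPM in KO and 27.8 CPM in WT, and Fcer1g 1652 CPM in KO and 2839 CPM in WT. Here too list genes were not corrected for gene span, a correction that moved Itgav in monocytes from -0.28 to -0.72.

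Over the 20 points of class and library, the genes whose log2 levels followed each member other than Cd47 most closely were ranked by Pearson's r among 8990 genes, as a description, since points of a library share its depth. Mertk was followed by Pla2g15 (r = 0.97), Lpl and Siglec1, and Gas6 by Igf1 (0.98), Folr2 and Pmp22. Stab1 was followed by Trem2 (0.98), Flrt2 and Arg1, and Sirpa by Clec4a1 (0.98), Gm5431 and Rin2. Timd4 was followed by Nectin1 (0.89), Ccl17 and Adam23, and Axl by Acp2 (0.90), Ifih1 and Epb41l1. For Itgav the closest gene was Gm13684 (0.92), the overlapping gene, ahead of Plk3 and Agfg1, and for Mfge8 Ccnd2 (0.84), Lrrc8c and Tes. Thinned to 2000 UMIs, 22.8% of Mertk-positive and 11.7% of Mertk-negative KO macrophages held a Gas6 UMI, against 10.5% and 5.52% of WT macrophages. A Gas6 UMI was thus more frequent in macrophages with a Mertk UMI than in those without in both libraries, as a description of shares. The same held for Stab1, at 27.0% and 15.9% in KO and 36.2% and 28.1% in WT, and for Sirpa. Itgav had the other order in KO, at 12.7% and 20.8%, but not in WT, at 30.8% and 25.4%. Axl was not more frequent with Mertk in either library.

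Gene bodies on GRCm38 run from 15.3 kb for Mfge8 to 114 kb for Cd47, with Mertk at chr2:128698956-128802894 (104 kb), Stab1 at chr14:31139013-31168641 (29.6 kb) and Itgav at chr2:83724397-83806916 (82.5 kb).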

How the data were processed

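The deposited files held counts, as whole numbers of UMIs per gene and cell barcode, with no normalization. The file headers name Cell Ranger 7.2.0, and the submitters' processing notes name the build mm10. The annotation behind the counts, and the use of strand or intronic reads, are not given in the sources used here. Libraries held 127186298 UMIs in 9130 KO barcodes and 208936136 UMIs in 10882 WT barcodes.

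Cells with at least 200 genes and under 10% mitochondrial UMIs were kept. Scrublet in scanpy 1.11.5 scored doublets; its own threshold marked 0 KO and 144 WT cells (1.53%), so the highest scores were removed at 0.8% per 1000 barcodes, 635 KO and 820 WT cells. A cell took the class of highest mean marker score if at least 3 markers had a UMI, the score was at least 0.2 and it led the next class by 0.1. Leiden clusters (2000 variable genes, 30 components, 15 neighbours, resolution 1.0) are named by leading genes only. UMIs were summed per class and library. Macrophages were split at 1 Cd163 and 3 Spp1 UMIs per 10000.

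With 1 library per group no test was run. The ratio was tested on simulated data, where 2-fold changes of 200 genes passed 1.5-fold for 96.0% of genes in macrophages, 92.5% in monocytes, 93.5% in cDC1 and 87.5% in mature DCs. The simulation held counting noise only, with no variation between cells, tumours or subsets, so it does not cover those sources. Free RNA was estimated per class from markers of other classes. Gene positions came from GENCODE vM21 on GRCm38, which held 32158 of 32285 identifiers, and start-site windows from RefSeq. Named genes were all members in each class of at least 100 cells per library, the 3 genes of each pathway list with the largest ratio past 1.5-fold in macrophages and in monocytes, and the 3 genes most like each member; Havcr2, Cd300a, the macrophage values of Elmo1 and Thbs1, the monocyte value of C1qa and overlapping genes were added after their values were seen. The genes most like Cd47 are not reported here. Members and lists were chosen with earlier results of these data known. The alternatives tried are given in the closing section.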

Additional observations from a re-analysis of the deposited data

Results flagged for a closer look

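Axl moved in opposite directions in 2 dendritic cell classes. Its log2 ratio, KO over WT, was 1.13 in mature DCs and -1.44 in cDC2, and the difference was not tested. In mature DCs 25 of the 86 KO UMIs came from 1 cell, and the share of positive cells was 16.2% in KO and 17.2% in WT.

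Itgav did so in mature DCs and macrophages, with a log2 ratio of 0.84 in mature DCs and -0.73 in macrophages. This difference was not tested either, and 32 of the 177 KO UMIs of mature DCs came from 1 cell. In the Ccl8 C1qa cluster the macrophage value was 0.23.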

How the results depend on the processing

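With 1 library per group and tumours pooled within it, differences between tumours could not be measured. Of 411 alternative log2 ratios 36 had another sign than the reported value. Of the 122 whose reported ratio was past 1.5-fold, 5 changed sign and 12 lost the call, and of the 289 whose reported ratio was within it, 31 changed sign and 27 passed 1.5-fold, 9 of these after the span correction. In macrophages, a gate margin of 0.25 gave 0.93 for Mertk, 1.10 for Gas6 and -0.64 for Stab1. Classing cells by the majority gate of their cluster gave -0.047 for Mertk, 0.18 for Gas6, -1.74 for Stab1 and -0.96 for Itgav. Subtracting the median of genes of like span gave 0.44 for Mertk and -1.10 for Itgav. The mean of each cell's CPM gave 1.66 for Gas6, -0.59 for Stab1 and, in cDC1, 3.87 for Timd4. Equal weights for the 3 macrophage ranges gave 0.67 for Mertk and -0.017 for Gas6. Among settings chosen after seeing the data, macrophages of the Ccl8 C1qa cluster gave 1.57 for Mertk, -1.26 for Gas6, -1.13 for Stab1 and 0.23 for Itgav. Macrophages outside the Cd163 range and the cluster of few UMIs gave 0.17 for Gas6 and -1.33 for Stab1. A pseudocount of 1 CPM gave 4.88 for Timd4 in cDC1. The count of higher members in macrophages, 2 as reported, was 0 by cluster majority, 1 after the span correction, 0 at a fold of 2 and 1 outside the Cd163 range. The count of lower members, 2, was 0 at a fold of 2, and that of monocytes, 1, was 2 after the span correction. By cluster majority Axl in macrophages also passed 1.5-fold lower, at -0.75. Timd4 in macrophages, which the level filter left out, had a log2 ratio of 1.79. Sirpa in regulatory T cells had 0.081 with doublets kept. Sirpa in mature DCs passed 1.5-fold lower in 3 settings (-0.65 to -0.79), as did Axl in regulatory T cells in 4 (-0.61 to -0.67), and Itgav in cDC1 passed it higher as the mean of each cell's CPM (0.62). The cause of these shifts was not tested. Cells with at least 2000 UMIs only, also chosen after seeing the data, changed no count. No paired analysis was possible because each group has 1 library.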
